A study of Homo sapiens with 5 samples.

Results

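The HOX genes examined here are the 39 protein-coding genes whose symbol is HOXA, HOXB, HOXC or HOXD followed by a number. They were taken by symbol from the GENCODE 29 annotation, by a rule that uses no measured value, and all 39 were among the 31029 genes listed for every library. The HOXA cluster on chromosome 7 has 11 of them, the HOXB cluster on chromosome 17 has 10, the HOXC cluster on chromosome 12 has 9 and the HOXD cluster on chromosome 2 has 9. RNA-seq counts were available for 2 libraries of 501Mel, a human melanoma line, and 3 libraries of Hermes 3A, an immortalised human melanocyte line. Both lines were grown in RPMI medium with foetal calf serum. For Hermes 3A only, TPA, cholera toxin, stem cell factor and endothelin-1 were added. Cells of both lines carried a lentiviral short hairpin RNA against BPTF (shBPTF), the defining subunit of the NURF chromatin-remodelling complex, and were selected for 5 days in puromycin at 3 µg/ml. No library with a control hairpin was analysed here, so every difference below is between the lines with BPTF targeted in both, and no effect of the hairpin can be read from it. Cell line and these added culture factors cannot be told apart, and each line is a single line. Fewer expressing cells and less RNA per cell cannot be told apart either.

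HOX genes encode homeodomain transcription factors that give cells a memory of their place along the body axis. Each cluster is read in order, with low numbers (anterior genes) active towards the head and high numbers (posterior genes) active towards the tail and the ends of the limbs, and skin cells of the adult are known to keep such a code. Polycomb complexes hold silent HOX genes closed, trithorax (MLL) complexes keep active ones open, retinoic acid opens the anterior end, and PBX and MEIS proteins of the TALE family bind DNA together with HOX proteins.

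Total counts ranged from 30073071 to 43032311 per library, so that 3 counts corresponded to between 0.0697 and 0.0998 CPM (read counts scaled to a common library total) before TMM scaling. The HOX genes took 5789 to 7199 counts in the 501Mel libraries and 13816 to 18256 counts in the Hermes 3A libraries. All 10 melanocyte markers were above 3 counts in every library of both lines, with a summed CPM of 13593 to 21142 in 501Mel and 32201 to 35351 in Hermes 3A. The summed CPM of 10 fibroblast markers was 64.1 to 76.3 in 501Mel and 435.8 to 493.9 in Hermes 3A, with 6 of them above 3 counts in every 501Mel library, 7 in every Hermes 3A library and none at 0 throughout a line. Keratinocyte markers (8 of 10 listed, 2 at 0 in 501Mel and 3 in Hermes 3A) summed to 35.3 to 38.5 CPM and 159.8 to 188.8 CPM, endothelial markers (4 of 5 listed, 1 at 0 in 501Mel) to 0.627 to 0.779 and 9.08 to 13.7, and leukocyte markers (1 of 5 at 0 in each line) to 0.134 to 0.182 and 0.433 to 0.553. KRT14 and KRT6A were not listed for Hermes 3A and CD3E was not listed for 501Mel, and these were taken as 0 here. The Hermes 3A keratinocyte sum was mostly DSP (99.4 CPM), KRT10 (45.6) and CDH1 (25.0), while SFN had 0 counts there and KRT5 and KRT1 were listed for neither line. KDR, at 10.6 CPM, made up most of the endothelial sum in Hermes 3A. The sums of these lists were higher in Hermes 3A together with most HOX genes, but the members did not all go that way: DCT, SLC45A2 and EDNRB were called higher in 501Mel and PMEL and MLANA lower, and of 9 tested fibroblast markers COL1A2, FAP and TWIST1 were called lower and 4 had a log2 fold change above 0. The share called was 50% of the melanocyte markers and 33.3% of the tested fibroblast markers, beside 34.3% of all tested genes. The call of PMEL was lost with the replicate number added to the fit and without Hermes 3A replicate 3. Those of MLANA and TWIST1 were lost without Hermes 3A replicate 1. Without 501Mel replicate 1 the log2 values were -1.07 for PMEL, -0.84 for MLANA and -0.96 for TWIST1. The part of these cells or genes in the HOX differences was not tested. BPTF itself had 60.2 ± 4.65 CPM in 501Mel (SD, n = 2) and 51.4 ± 3.15 CPM in Hermes 3A (SD, n = 3), a log2 difference of 0.23 with an adjusted p of 0.211, and without control libraries its knockdown could not be checked. The labels do not say whether replicates were separate cultures, so that the p-values measure the spread between these libraries only.

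The promoter windows of 5 posterior genes are shown. Of these, 4 were far lower in 501Mel, while HOXA13 went the opposite way. They cover the 250 bases before the start site in the RefSeq annotation of GRCh38.p14, read 5′ to 3′ on the strand of the gene. Capitals mark CACGTG, the E-box core read by MITF and other basic helix-loop-helix proteins, and TGATTNAT, a letter string of the kind bound by PBX and HOX proteins together, each searched on both strands.
HOXA9 (chr7:27165538-27165787, minus strand): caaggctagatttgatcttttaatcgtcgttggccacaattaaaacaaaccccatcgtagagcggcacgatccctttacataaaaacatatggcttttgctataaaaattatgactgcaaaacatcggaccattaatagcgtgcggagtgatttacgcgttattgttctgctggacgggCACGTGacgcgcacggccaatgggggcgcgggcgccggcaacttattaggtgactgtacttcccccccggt
HOXD10 (chr2:176116528-176116777, plus strand): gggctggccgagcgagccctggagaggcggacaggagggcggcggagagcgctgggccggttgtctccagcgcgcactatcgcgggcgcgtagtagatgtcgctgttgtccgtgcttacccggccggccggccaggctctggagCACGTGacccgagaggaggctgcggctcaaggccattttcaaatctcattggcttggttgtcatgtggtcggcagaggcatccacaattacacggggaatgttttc
HOXD11 (chr2:176107030-176107279, plus strand): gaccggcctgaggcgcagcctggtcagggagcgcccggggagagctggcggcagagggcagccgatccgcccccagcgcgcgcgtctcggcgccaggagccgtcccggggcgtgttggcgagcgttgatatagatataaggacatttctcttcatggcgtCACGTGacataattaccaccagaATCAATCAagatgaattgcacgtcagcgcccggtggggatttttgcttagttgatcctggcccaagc
HOXD13 (chr2:176092471-176092720, plus strand): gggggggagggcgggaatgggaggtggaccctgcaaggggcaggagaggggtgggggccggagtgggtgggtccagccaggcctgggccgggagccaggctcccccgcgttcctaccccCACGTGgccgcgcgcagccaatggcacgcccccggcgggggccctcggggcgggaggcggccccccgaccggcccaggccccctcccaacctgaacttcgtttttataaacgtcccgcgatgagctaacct
HOXA13 (chr7:27200092-27200341, minus strand): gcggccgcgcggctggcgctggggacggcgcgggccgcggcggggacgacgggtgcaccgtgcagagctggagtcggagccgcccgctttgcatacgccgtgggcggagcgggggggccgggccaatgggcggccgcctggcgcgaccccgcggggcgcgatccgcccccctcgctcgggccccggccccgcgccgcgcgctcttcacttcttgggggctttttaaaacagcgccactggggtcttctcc
CACGTG begins at position -71 from the start site in HOXA9, -106 in HOXD10, -90 in HOXD11 and -131 in HOXD13, and a match to TGATTNAT on the opposite strand begins at -67 in HOXD11. The HOXA13 window has no match to these strings and holds 40 CG dinucleotides. Windows were given for 20 of the 39 genes (26 different windows, with 7 for HOXA3, 2 for HOXA10 and 1 shared by HOXC4 and HOXC5), and 8 of the 26 (30.8%) held CACGTG, against 6.31% of 34788 windows of all genes. TGATTNAT was in 2 of the 26 (7.69%, against 2.48%), TATAAA in 5 (19.2%, against 10.8%), and the median number of CG dinucleotides was 19.5, against 11. CACGTG itself contains a CG, and its share was not compared with that of windows of like CG number. A match is a string of letters and not a site of binding. The genes with a window were mostly of the HOXA and HOXD clusters. Of the HOXB genes only HOXB1, which was not tested, had a window, and of the HOXC genes only HOXC4 and HOXC5. The counts that follow therefore do not cover the HOXB genes or most HOXC genes called lower. Of 8 genes with CACGTG in a window, 5 were called lower in 501Mel, 1 higher and 2 not called. Of 12 genes without it, 2 were called lower, 1 higher, 7 were not called and 2 not tested. Among all tested genes, 17.1% were called lower and 17.2% higher. HOXA3, with CACGTG at -51 in a window, was called higher, and posterior HOXA11, without it, was called lower. Whether CACGTG goes with the difference between the lines was not tested.

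Summed over all 39 genes, HOX transcripts had a level of 155.8 ± 7.7 CPM in 501Mel (SD, n = 2) and 445.2 ± 17.4 CPM in Hermes 3A (SD, n = 3), so that Hermes 3A carried 2.86-fold more. The HOXA cluster was the exception, with 46.1 and 41.9 CPM in the 501Mel libraries and 34.2, 38.2 and 34.3 CPM in the Hermes 3A libraries. Both 501Mel libraries were above all 3 Hermes 3A libraries for this cluster. HOXB gave 31.8 and 30.7 CPM in 501Mel and 180.5, 206.8 and 253 CPM in Hermes 3A, a 6.83-fold difference. HOXC gave 53.4 and 46.1 CPM against 140.1, 127.5 and 118.8 CPM (2.59-fold). HOXD gave 30.0 and 31.6 CPM against 77.1, 66.2 and 58.7 CPM (2.18-fold). The libraries of the lines did not overlap for any cluster. These sums are given as a description, without a test.

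**Figure D1:**
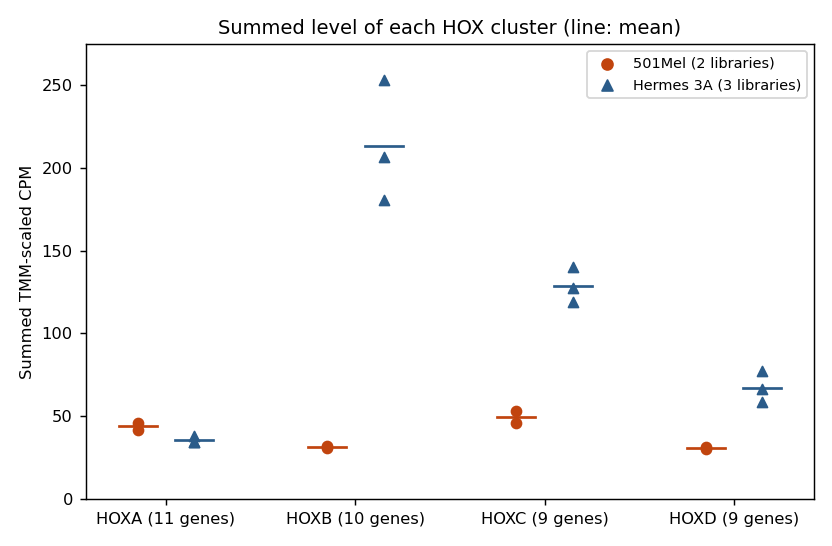
Summed TMM-scaled CPM (vertical axis) of the genes of each HOX cluster (horizontal axis), with 1 point per library, circles for 501Mel, triangles for Hermes 3A and lines at the means. HOXB reached 180.5 to 253 CPM in Hermes 3A and 30.7 to 31.8 CPM in 501Mel, whereas HOXA was slightly higher in 501Mel.

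The make-up of the HOX transcripts differed as well. HOXB provided 41.8% to 54.4% of HOX counts in Hermes 3A and 19.7% to 20.4% in 501Mel, while HOXA provided 7.38% to 8.71% in Hermes 3A and 27.9% to 28.6% in 501Mel. A single gene, HOXB13, held 20.4% to 27.4% of HOX counts in the Hermes 3A libraries and 1.75% to 2.03% in the 501Mel libraries. Without HOXB13, the remaining HOXB genes still summed to 92.4, 113.9 and 125.6 CPM in Hermes 3A, above the 28.5 and 28.1 CPM in 501Mel. Per kilobase of exon, the highest levels in Hermes 3A were those of HOXB13 (29.7 CPM per kb), HOXC10 (22.8), HOXB8 (11.5), HOXC9 (10.99) and HOXB9 (8.53). In 501Mel the highest were HOXD4 (9.55 CPM per kb), HOXC4 (6.58), HOXA5 (5.85), HOXC9 (5.59) and HOXB9 (5.08). HOXC9 and HOXB9 were thus among the 5 highest in both lines, and no gene above HOXB9 in the 501Mel order belonged to paralog groups 10 to 13. These orders rest on GENCODE 29 exon lengths, and the annotation used for the counts is not given. The place of HOXD4 is uncertain, since it shares 80.5% of its exonic bases with other genes on the same strand.

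Gene by gene, edgeR's quasi-likelihood test was run across 17918 genes, and a gene was called when its Benjamini-Hochberg adjusted p was at most 0.05 and its fold change at least 2. Of the 39 HOX genes, 37 passed the filter on low counts and 23 were called, 3 higher and 20 lower in 501Mel, beside 34.3% of all tested genes called (17.2% higher and 17.1% lower). The median log2 fold change of 501Mel over Hermes 3A was -1.55 over the 37 HOX genes and 0.02 over all tested genes. The libraries did not overlap in 31 of the 39 genes, with 501Mel below in 23 and above in 8. Lack of overlap was common among all 17918 tested genes too, with 501Mel below in 6096, above in 6401 and overlap in 5421. Both genes that failed the filter were near 0 in both lines: HOXA7 had 5 and 1 counts in 501Mel and 1, 5 and 0 in Hermes 3A, and HOXB1 had 0 and 1 against 0, 1 and 0. By cluster, 3 HOXA genes were called higher and 2 lower, and no gene of the other clusters was called higher, with 8 HOXB, 5 HOXC and 5 HOXD genes called lower. By position, 10 of 16 posterior genes (paralog groups 9 to 13) were called lower and 1 higher, against 7 lower and 1 higher of 14 tested central genes (groups 4 to 8) and 3 lower and 1 higher of 7 tested anterior genes (groups 1 to 3). The median log2 fold change was -4.60 for posterior genes (-4.44 when genes with few or no 501Mel counts were set at their limit or count ratio), -1.23 for central genes and -0.36 for anterior genes. These medians describe the groups, and the differences between positions were not tested.

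**Figure D2:**
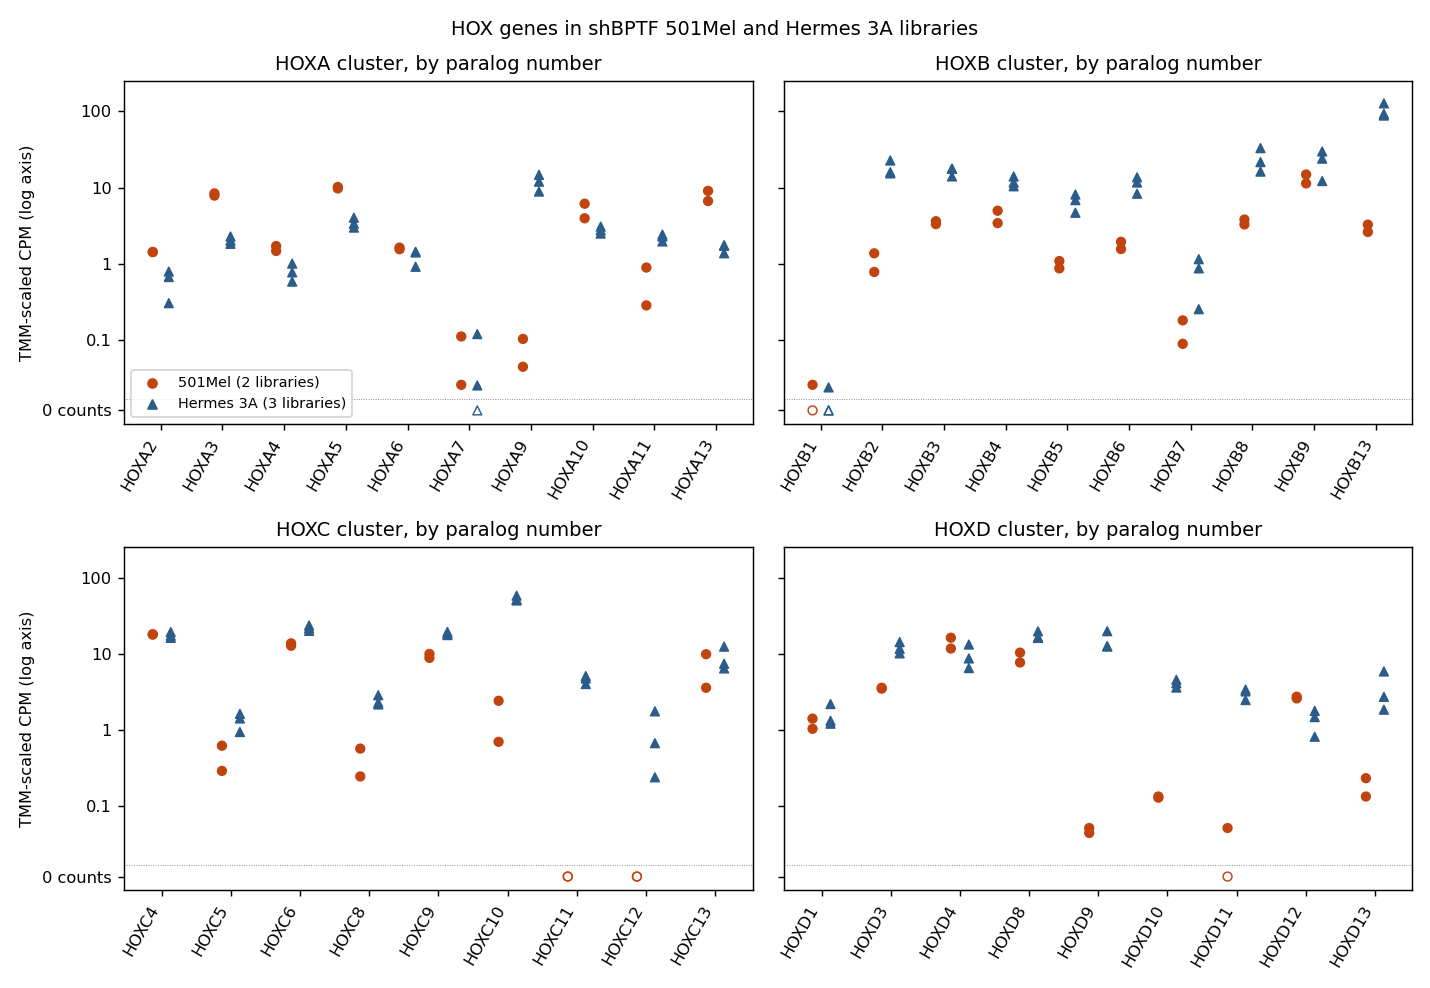
TMM-scaled CPM per library (vertical log axis) of the HOX genes in order of paralog number (horizontal axis), with 1 panel per cluster, circles for the 2 501Mel libraries and triangles for the 3 Hermes 3A libraries; open symbols below the dotted line are libraries with 0 counts. HOXA9, HOXC11, HOXD9, HOXD10, HOXD11 and HOXD13 stood at or near 0 in 501Mel but not in Hermes 3A, while HOXA13, HOXC13 and HOXD12 did not. HOXC12 had 0 counts in 501Mel and was also low in Hermes 3A, at 1.76, 0.24 and 0.67 CPM.

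The posterior genes HOXA9 and HOXD9 differed most among those with a fitted fold change. HOXA9, a gene of blood, limb and trunk patterning, had 2 and 4 counts in the 501Mel libraries and 349, 612 and 356 in the Hermes 3A libraries, or 0.0448 and 0.104 CPM against 8.89, 14.7 and 11.98 CPM. It was 163-fold lower in 501Mel (log2 -7.35 ± 0.53 SE, adjusted p = 0.000102), and the log2 value was -6.85 without 501Mel replicate 1 and -8.06 without replicate 2. HOXD9 had 2 and 2 counts in 501Mel and 777, 523 and 370 counts in Hermes 3A. It was 310-fold lower in 501Mel (log2 -8.28 ± 0.51 SE, adjusted p = 5.3e-05). Every Hermes 3A library was far above every 501Mel library for both. The other members of the ninth paralog group were not absent from 501Mel: HOXB9 had 13.1 ± 2.49 CPM there and 22.0 ± 8.97 CPM in Hermes 3A, with overlapping libraries, and HOXC9 had 9.39 ± 0.79 CPM and 18.4 ± 0.85 CPM. Neither was called, HOXB9 with an adjusted p of 0.139 and HOXC9 with 0.00662 but a fold change of 1.97.

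HOXA9 stood apart from its neighbours in the HOXA cluster. It made up 26.0% to 38.5% of HOXA counts in the Hermes 3A libraries and 0.0972% to 0.248% in the 501Mel libraries. Leaving it out, the other 10 HOXA genes summed to 46.0 and 41.8 CPM in 501Mel and 25.3, 23.5 and 22.3 CPM in Hermes 3A. HOXA10, which lies next to it and acts in limb, uterus and blood, had 5.06 ± 1.55 CPM in 501Mel and 2.78 ± 0.29 CPM in Hermes 3A and was not called (adjusted p = 0.0722). HOXA11, a gene of the forearm and uterus, had 40 and 11 counts against 95, 82 and 68 counts and was 3.74-fold lower in 501Mel (log2 -1.90 ± 0.55 SE, adjusted p = 0.0254). That call was lost without 501Mel replicate 2 (adjusted p = 0.0909) and without Hermes 3A replicate 3 (0.0571), and the log2 value was -2.97 without 501Mel replicate 1. HOXA13, which patterns the digits and the urogenital tract, went the other way, with 9.07 and 6.68 CPM in 501Mel and 1.73, 1.75 and 1.38 CPM in Hermes 3A. It was 4.85-fold higher in 501Mel (log2 2.28 ± 0.32 SE, adjusted p = 0.00146), with no overlap between the lines.

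The other 2 genes called higher in 501Mel were in the same cluster. HOXA3, which acts in the pharyngeal arches and neck, had 8.40 and 7.87 CPM in 501Mel and 1.84, 2.02 and 2.29 CPM in Hermes 3A, a 3.98-fold difference (log2 1.99 ± 0.30 SE, adjusted p = 0.00171). HOXA5, known for its part in lung and skeletal patterning, had 9.77 and 10.2 CPM against 3.36, 4.04 and 2.99 CPM, a 2.88-fold difference (log2 1.53 ± 0.28 SE, adjusted p = 0.00404). HOXA2, HOXA4 and HOXA6 were not called. HOXA2, a gene of the hindbrain and head skeleton, had 1.43 and 1.43 CPM in 501Mel and 0.306, 0.793 and 0.673 CPM in Hermes 3A, with no overlap but an adjusted p of 0.0682. HOXA4 (1.60 ± 0.17 against 0.79 ± 0.21 CPM, adjusted p = 0.0819) and HOXA6 (1.60 ± 0.05 against 1.26 ± 0.29 CPM, 0.504) lay closer together. In all, 7 of the 10 tested HOXA genes had a log2 fold change above 0.

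In the HOXB cluster all 9 tested genes had a log2 fold change below 0 and 8 were called lower in 501Mel. HOXB13, a prostate and tail-bud gene that lies apart from the rest of the cluster, had 146 and 101 counts in 501Mel and 3458, 3866 and 3786 in Hermes 3A, or 3.27 and 2.62 CPM against 88.1, 92.9 and 127.4 CPM. It was 34.8-fold lower in 501Mel (log2 -5.12 ± 0.26 SE, adjusted p = 2.7e-05). HOXB2, a hindbrain gene towards the opposite end, had 0.784 and 1.38 CPM against 22.7, 16.0 and 15.4 CPM and was 16.7-fold lower (log2 -4.07 ± 0.38 SE, adjusted p = 0.00027). These were the largest differences among the tested HOXB genes; HOXB1, which lies beyond HOXB2, was not tested. Between them, the fold differences of HOXB3, HOXB4, HOXB5, HOXB6, HOXB7 and HOXB8 ranged from 2.86 for HOXB4 to 6.68 for HOXB5. HOXB3, HOXB4, HOXB5 and HOXB6, which act in the neck and upper trunk, had adjusted p-values from 0.000546 to 0.00539, and none of their libraries overlapped between the lines. HOXB8, a gene of the trunk and of myeloid cells, had 3.29 and 3.82 CPM against 16.2, 21.6 and 33.0 CPM (log2 -2.73 ± 0.35 SE, adjusted p = 0.000988). HOXB7, which is often studied in melanoma, was hardly detected, with 0.0896 and 0.182 CPM in 501Mel and 0.255, 1.15 and 0.875 CPM in Hermes 3A. Its call (log2 -2.50 ± 0.81 SE, adjusted p = 0.0371) was lost without either 501Mel library, at an adjusted p of 0.193 without replicate 1 and 0.0875 without replicate 2, and it fell below the filter without Hermes 3A replicate 2 or 3. Hermes 3A replicate 1 was the lowest of its line for HOXB5, HOXB6, HOXB7, HOXB8, HOXB9 and HOXB13. Without that library HOXB9 passed both thresholds (log2 -1.06, adjusted p = 0.00894).

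**Figure D3:**
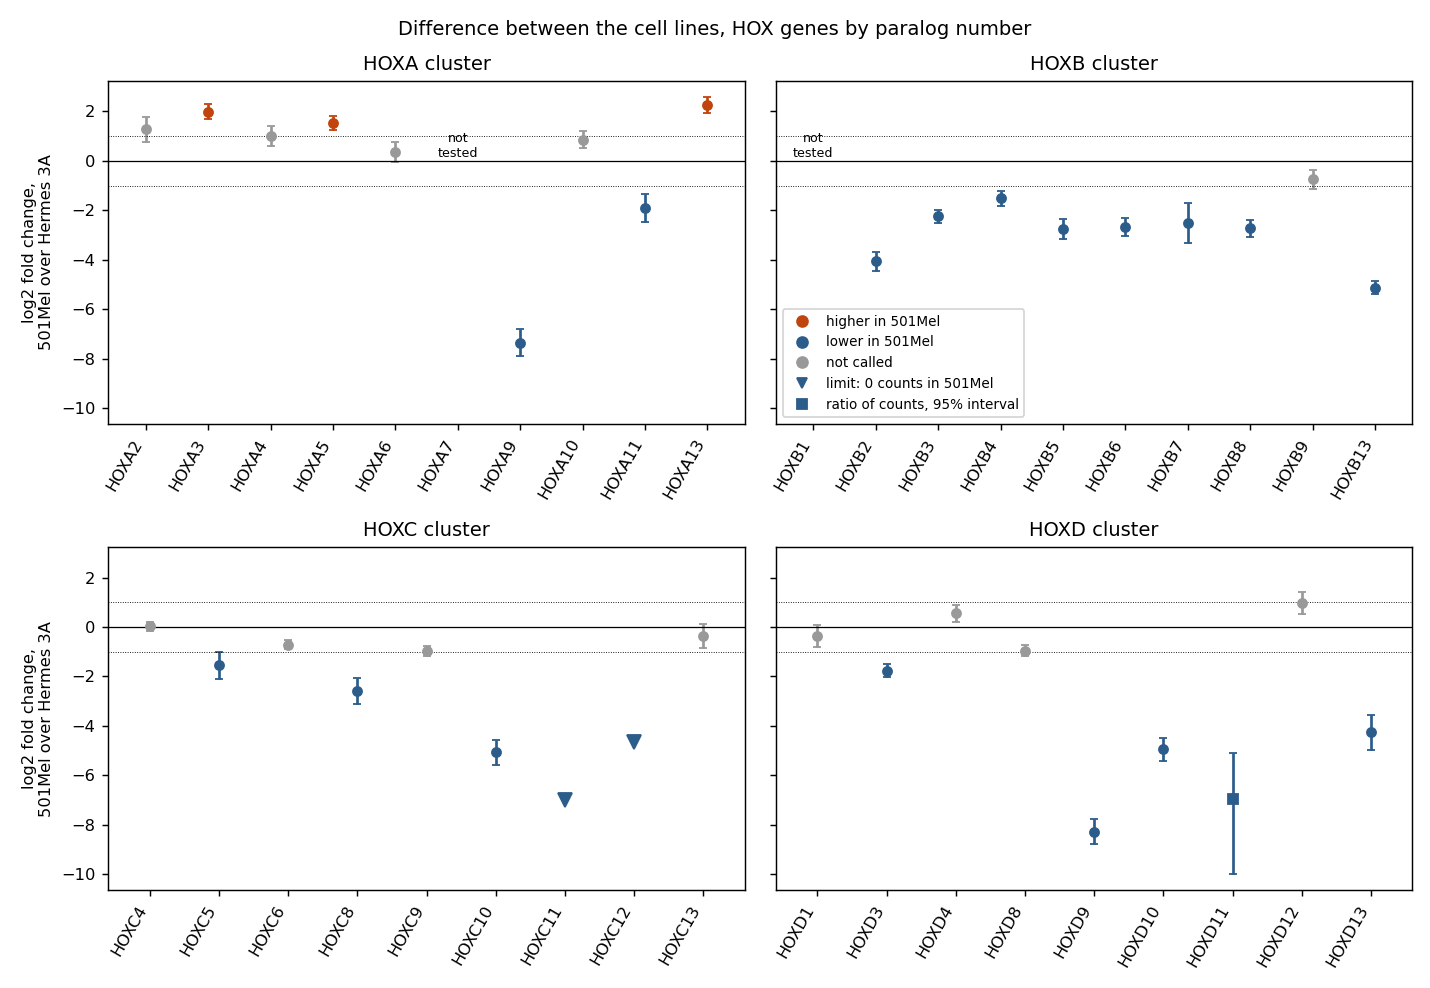
Log2 fold change of 501Mel over Hermes 3A (vertical axis) for the HOX genes in order of paralog number (horizontal axis), with 1 panel per cluster; bars are standard errors, dotted lines mark 2-fold, colours give the call, and triangles (limits) and the square (count ratio with its 95% interval) stand for genes with too few 501Mel counts for a fitted value. The values ran from -8.28 for HOXD9 to 2.28 for HOXA13, and the calls above 0 were in the HOXA panel only.

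In the HOXC cluster the called genes were HOXC5, HOXC8, HOXC10, HOXC11 and HOXC12. HOXC10, a hindlimb and lumbar gene, had 108 and 27 counts in 501Mel and 2265, 2141 and 1486 counts in Hermes 3A. It was 33.6-fold lower in 501Mel (log2 -5.07 ± 0.50 SE, adjusted p = 0.000324), and the 501Mel libraries themselves differed 3.45-fold in CPM. The log2 value was -6.25 without 501Mel replicate 1 and -4.47 without replicate 2. HOXC11 had 0 counts in both 501Mel libraries and 200, 167 and 141 counts in Hermes 3A, so that it was at least 127.3-fold lower in 501Mel, taking 3 counts over the line as the floor (adjusted p = 0.000226). HOXC12 had 0 counts in both as well and 69, 10 and 20 counts in Hermes 3A, at least 24.8-fold lower (adjusted p = 0.0108), with a 7.32-fold range among the Hermes 3A libraries. The limit was 11.65-fold without Hermes 3A replicate 1, which held most of the counts and without which the gene fell below the filter. Since the limits scale with the depth of 501Mel, leaving out a 501Mel library lowered that of HOXC11 to 58.9-fold or 68.4-fold and that of HOXC12 to 11.5-fold or 13.3-fold. HOXC13, a hair and nail gene at the end of the cluster, did not follow: it had 9.88 and 3.58 CPM in 501Mel and 12.4, 7.40 and 6.43 CPM in Hermes 3A, overlapping ranges (log2 -0.38, adjusted p = 0.553). Of the central genes, HOXC8, a thoracic gene, had 0.246 and 0.571 CPM against 2.17, 2.86 and 2.29 CPM and was 6.01-fold lower (log2 -2.59 ± 0.51 SE, adjusted p = 0.00559). Its log2 value ranged from -3.32 to -2.10 without 1 library. HOXC5 was 2.94-fold lower on 13 and 24 counts against 64, 59 and 28, and its call (log2 -1.55, adjusted p = 0.0448) was lost with library totals as the scale, without 501Mel replicate 1 (log2 -1.11, adjusted p = 0.219) and without each Hermes 3A library in turn (adjusted p between 0.0504 and 0.0899). Without 501Mel replicate 2 its log2 value was -2.21 (adjusted p = 0.0493). HOXC5 also shares 59.9% of its exonic bases with other genes on the same strand, which makes its counts uncertain. HOXC6 was 1.64-fold lower (adjusted p = 0.0176), below the fold threshold. HOXC4, at the anterior end of the cluster, had the smallest log2 difference of the 37 tested genes, with 17.8 and 18.1 CPM in 501Mel and 19.2, 17.3 and 16.2 CPM in Hermes 3A, a log2 difference of 0.03 ± 0.19 SE.

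In the HOXD cluster the genes called lower were HOXD3 and the posterior genes HOXD9, HOXD10, HOXD11 and HOXD13. HOXD8, a trunk gene, had 10.3 and 7.69 CPM in 501Mel and 19.7, 16.2 and 16.4 CPM in Hermes 3A, a 1.93-fold difference that passed the adjusted p (0.0143) but not the fold threshold. The next gene, HOXD9, was nearly undetected in 501Mel as given above. HOXD10, a gene of the hindlimb and lumbar spinal cord, had 0.134 and 0.13 CPM against 4.56, 3.61 and 4.10 CPM and was 30.9-fold lower (log2 -4.95 ± 0.46 SE, adjusted p = 0.000257). HOXD11, which patterns the forearm, had 0 and 2 counts in 501Mel and 126, 103 and 101 counts in Hermes 3A, a ratio of 124 to 1 (95% interval 34.1 to 1029, counting error only; adjusted p = 0.000728). The ratio was 57.4 to 1 without 501Mel replicate 1, and without replicate 2, which held both counts, HOXD11 was at least 44.4-fold lower. HOXD13, the digit gene, had 0.134 and 0.234 CPM against 5.86, 1.85 and 2.73 CPM and was 19.1-fold lower (log2 -4.25 ± 0.71 SE, adjusted p = 0.00287; log2 -3.67 without Hermes 3A replicate 1, the highest library). HOXD12, which lies between these genes, had 2.73 and 2.60 CPM in 501Mel and 1.48, 0.817 and 1.78 CPM in Hermes 3A. It was thus higher in both 501Mel libraries than in every Hermes 3A library, though not called (log2 0.98 ± 0.43 SE, adjusted p = 0.0996). Per kilobase, HOXD12 had 1.98 CPM per kb in 501Mel, whereas HOXD9, HOXD10, HOXD11 and HOXD13 had between 0.0123 and 0.0822. At the anterior end HOXD3 was 3.39-fold lower (3.50 and 3.58 CPM against 11.6, 14.2 and 10.1 CPM, adjusted p = 0.00226), while HOXD4 (log2 0.56, adjusted p = 0.209) and HOXD1 (log2 -0.36, adjusted p = 0.530) overlapped between the lines. HOXD3 and HOXD4 share 62.2% and 80.5% of their exonic bases with other genes on the same strand, so that the split of reads between them is uncertain.

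Genes of one paralog group, which share the most sequence, were in some groups called in opposite directions. In group 13 the log2 fold changes were 2.28 for HOXA13, -5.12 for HOXB13, -0.38 for HOXC13 and -4.25 for HOXD13. In group 3 they were 1.99 for HOXA3, -2.24 for HOXB3 and -1.76 for HOXD3, and in group 5 they were 1.53 for HOXA5, -2.74 for HOXB5 and -1.55 for HOXC5. In group 10 HOXC10 and HOXD10 were called lower at -5.07 and -4.95 with HOXA10 at 0.86, and in group 11 all 3 members (HOXA11, HOXC11 and HOXD11) were called lower. Differences between paralogs were not tested.

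Because the clusters are dense, 25 of the 39 genes share exonic bases with another gene on either strand, and the counting program and its use of strand are not given in the sources used here. Of the 13 tested genes without any such overlap, 8 were called lower and 1 (HOXA5) higher in 501Mel. Of the 24 tested genes with overlap, 12 were called lower and 2 higher. HOXB13, HOXC11, HOXC12, HOXD9 and HOXD13 were among those without overlap.

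The non-coding and small genes inside the clusters could be compared with the HOX genes beside them. Of 20 such genes, 16 were tested and 8 called (50%, beside 34.3% of all tested genes), 2 higher and 6 lower in 501Mel. HOTTIP, a long non-coding RNA at the HOXA13 end, had 17 and 10 counts in 501Mel and 0, 1 and 0 in Hermes 3A (adjusted p = 0.00515), the direction of HOXA13. HOTAIR, annotated on the opposite strand from HOXC12 to HOXC11, had 0 and 0 counts against 21, 34 and 21, at least 19.0-fold lower in 501Mel (adjusted p = 0.00171; at least 8.819-fold and 10.2-fold without 501Mel replicate 1 and 2), the direction of both of these genes. PRAC2, beside HOXB13, had 0 and 1 counts against 117, 94 and 76 (adjusted p = 0.000421), and HOXA10-AS, which lies within the annotated span of HOXA9 on the opposite strand, had 4 and 3 counts against 56, 83 and 47 (log2 -4.31 ± 0.54 SE, adjusted p = 0.00083). HOXA10, whose annotated span overlaps that of HOXA9, had the opposite sign to HOXA10-AS (log2 0.86) and was not called. HOXA-AS2, on the opposite strand within the span of HOXA3, was 3.96-fold higher in 501Mel (adjusted p = 0.0369), a call that was lost without either 501Mel library (0.103 without replicate 1, 0.124 without replicate 2) and without Hermes 3A replicate 3 (0.0716). HOTTIP fell below the filter without 501Mel replicate 1. HOXC-AS2 (1 and 0 counts against 15, 45 and 11), HOXB-AS1 (log2 -3.09) and HOXC-AS3 (log2 -3.03) were called lower, and the calls of HOXB-AS1 and HOXC-AS3 were lost without 501Mel replicate 2 (adjusted p = 0.0649 and 0.0929) and that of HOXB-AS1 also without 501Mel replicate 1 (0.083), while HOXB-AS1 fell below the filter without Hermes 3A replicate 2 or 3. Not every gene inside a cluster had the sign of its HOX neighbours: HAGLR (log2 1.11, adjusted p = 0.0652), HOXD-AS2 (0.89, 0.0742) and HOXC-AS1 (0.55, 0.439) were above 0 in clusters where no HOX gene was called higher, and none of them was called. Without strand information, reads of antisense genes cannot be told apart from those of the HOX genes they overlap.

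Outside the clusters, 21 of 24 flanking protein-coding genes were tested, and 4 were called higher and 3 lower in 501Mel, 33.3% of those tested, near the share of all genes. The exception in size was TTLL6, a tubulin glutamylase gene on the HOXB13 side of its cluster, with 5 and 2 counts in 501Mel and 710, 1036 and 759 counts in Hermes 3A, 272.7-fold lower (log2 -8.09 ± 0.43 SE, adjusted p = 3.4e-05). The other called genes differed less: SNX10 (log2 1.99), CBX3 (1.23), HNRNPA1 (1.04) and TAX1BP1 (1.02) were higher, and CALCOCO1 (-1.21) and CALCOCO2 (-1.03) were lower. HNRNPA1 and TAX1BP1, just above 2-fold, each lost their call in 5 alternatives: HNRNPA1 with the replicate block (log2 0.87), with at least 10 counts in every library of a line (0.99) and without 501Mel replicate 1 (0.95) or Hermes 3A replicate 2 (0.97) or 3 (0.81), and TAX1BP1 with DESeq2 (0.99), with no filter (0.98), with at least 10 counts (0.96) and without 501Mel replicate 2 (0.94) or Hermes 3A replicate 2 (0.92). The call of CALCOCO2 was lost with library totals as the scale (-0.97). On the HOXB13 side, large differences were thus also seen at PRAC2 and TTLL6, while further out CALCOCO2 differed 2.05-fold and ATP5MC1 was not called. PRAC1, another of the small cluster genes, was near 0 in both lines (0 and 0 counts against 0, 1 and 1) and fell below the filter. Whether these genes differ together as a region was not tested. Of the 8 ParaHox and EVX genes, the close relatives of the HOX genes, 4 were listed for both lines and none of these passed the filter: EVX1, beside HOXA13, had 4 and 5 counts in 501Mel and 0 in each Hermes 3A library, and EVX2, beside HOXD13, had 10 and 6 counts against 6, 5 and 0.

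**Figure D4:**
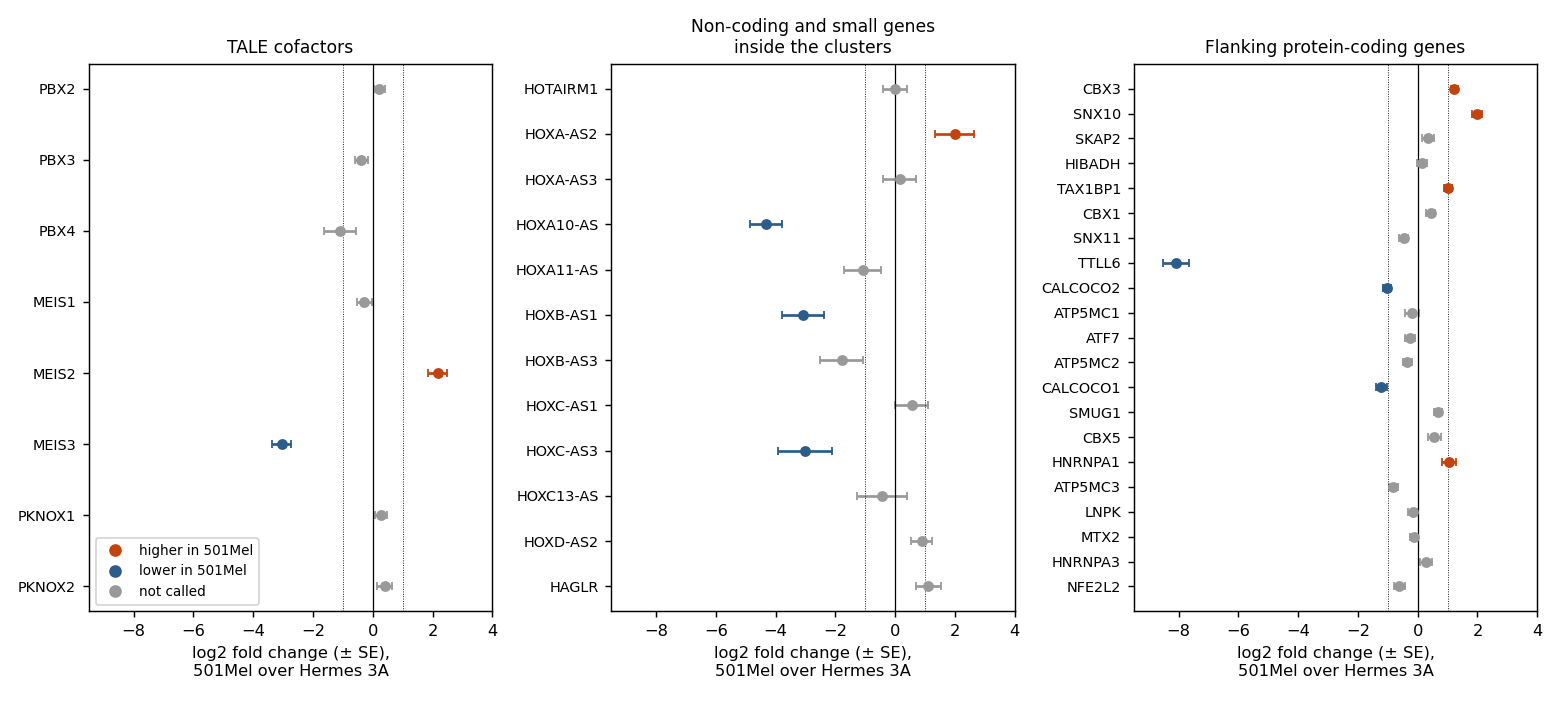
Log2 fold change of 501Mel over Hermes 3A with standard errors (horizontal axis) for TALE cofactors, genes inside the HOX clusters and flanking genes (vertical axes), coloured by call; HOTAIR, HOTTIP, HOXC-AS2 and PRAC2 are not drawn because a line had too few counts. TTLL6 at -8.09 lies far to the left.

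Among the TALE cofactors that bind DNA with HOX proteins, the share called was near the 34.3% of all tested genes, and the calls went in both directions. MEIS3 was 8.29-fold lower (4.52 against 37.5 CPM, adjusted p = 0.000363), and MEIS2 was 4.50-fold higher (42.5 against 9.45 CPM, adjusted p = 0.00171). Among the others, PBX2, PBX3, PBX4, MEIS1, PKNOX1 and PKNOX2 were not called, with log2 fold changes from -1.09 for PBX4 to 0.39 for PKNOX2. PBX2 (78.4 and 67.7 CPM) and MEIS1 (9.49 and 11.5 CPM) were present in both 501Mel and Hermes 3A.

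Among 42 regulators of HOX clusters (Polycomb, MLL-linked and retinoid genes), 38 were tested, 9 called higher and 4 lower in 501Mel, 34.2% of those tested against 34.3% of all genes. The largest differences were those of CYP26B1, a retinoic acid-degrading enzyme (log2 4.33 ± 1.03 SE, adjusted p = 0.0118, on 196 and 32 counts against 4, 11 and 0; log2 2.68 and adjusted p = 0.122 without 501Mel replicate 1), EZH2, the Polycomb methyltransferase (2.11), BMI1, a subunit of the other Polycomb complex (1.96), PSIP1, an MLL tether (1.89), and RARG, a retinoic acid receptor (-1.50).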

How the data were processed

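RNA of 501Mel and Hermes 3A cells carrying shBPTF (2 and 3 libraries) was depleted of ribosomal RNA, made into libraries that were normalised with duplex-specific nuclease (which can lower abundant transcripts) and sequenced. The authors deposited raw read counts per Ensembl gene. The submitters' processing notes name TopHat 1.4.1, Bowtie 0.12.7, CASAVA 1.8 and hg19; the counting program, annotation and strandedness are not given in the sources used here, nor is which of the hairpins each library carried. Genes listed for both lines (31029) were fitted with edgeR 4.0.16 in R 4.3.3 (TMM, filterByExpr, quasi-likelihood test, no covariate); 6230 genes listed for 501Mel only and 3004 for Hermes 3A only were left out. Log2 fold changes are unshrunken, standard errors were derived from the F statistic, and p-values were adjusted by Benjamini-Hochberg over all tested genes. The fit was tested on simulated data. CPM were computed on TMM-scaled library sizes. Lengths, overlaps and flanking genes came from GENCODE 29 on GRCh38, which is not the build of the counts, so that no coordinate of the counts was used. Promoter windows were available for 20 of the 39 genes, and protein sequences were not used here. The rule was to name all HOX genes, every TALE and flanking gene, and the 5 largest called differences of the other lists; the remaining called genes inside the clusters and the called marker genes were named after their values were seen, and some items are not reported here. Although membership follows from the symbol alone, the HOX genes and the lists were picked for description with earlier results of these data known. DESeq2 1.42.0, other scalings, other filters, a replicate block and leaving out each library were alternatives. Intervals and floors cover counting error only.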

Additional observations from a re-analysis of the deposited data

How the results depend on the processing

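Of the 23 called HOX genes, 19 were tested and called in the same direction under every alternative run; HOXC12 was called in all but the fit without Hermes 3A replicate 1, where it fell below the filter, and HOXA11, HOXB7 and HOXC5 lost their call under some, as given above. The number of HOX genes called higher stayed at 3 and the number called lower ranged from 18 to 20 without 1 library; DESeq2 gave 3 and 21. HOXC9 passed the fold threshold in 6 alternatives, HOXD8 in 4 and HOXB9 in 1. Of the genes reported, 2 that were not called changed sign: HOXC13 (between -1.29 and 0.16 without 1 library) and HOXC4, which was -0.0051 with no filter, -0.022 with at least 10 counts in every library of a line, -0.022 with the replicate block and between -0.068 and 0.084 without 1 library. With the levels per kb of the median transcript, the log2 ratio of the HOXC sums was -1.75 in place of -1.44. ParaHox and EVX genes called higher went from 0 to 1 with no filter, flanking genes called higher from 4 to 2 with at least 10 counts in every library of a line and between 2 and 4 without 1 library, and non-coding or small cluster genes called higher from 2 to between 0 and 3. The cause was not tested. Restricting the fit to genes in all 5 files is the analysis reported; taking missing genes as 0 was added after seeing the data and changed no HOX call. The replicate numbers shared by the lines were fitted as a replicate block: 3 HOX genes were called higher and 21 lower, and 2737 genes of all were called higher and 2909 lower. Libraries of the same number deviated together only weakly (correlations of 0.104 and 0.121 in 2 pairs), so that the numbers were not taken as pairs. Other scalings moved the median of all genes by -0.029 to 0.063. With 2 libraries in 501Mel, each left-out 501Mel library leaves 1, which is assumed to vary like the Hermes 3A libraries. Where 1 line had 3 counts or fewer, a difference could still be called, as for HOXC11, HOXC12 and HOXD11, but its fitted fold change was not used. Genes that low in both lines, such as HOXB1, fell below the filter.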
